A study of Mus musculus with 9 samples.

Results

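The genes described here are 34 genes of glycolysis, lactate handling and glycogen metabolism, out of 55401 genes in the deposited count table. They were found by matching the gene names of the table to a list of enzymes, their regulators and lactate transporters. The 34 symbols matched 35 entries of the table, because Aldoa is listed at a second entry with few counts. All 35 entries had enough counts to be tested, among 16762 genes tested in all.

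Poly(A) RNA of primary ventricular myocytes from wild-type (WT) C57BL/6J mice aged 1 day (neonatal mouse ventricular myocytes, NMVMs) was sequenced in 9 libraries, with 3 in each of 3 groups. Control cells stayed in normoxia in complete medium, which was DMEM with 10% FBS. The hypoxia group was moved to DMEM that lacked both glucose and serum and was sealed for 6 h in a chamber with an AnaeroPack, a sachet that takes up oxygen. The hypoxia + rSRGN group had the same 6 h in the same medium, to which recombinant serglycin, a proteoglycan core protein, was added at a dose that the labels do not give. Oxygen, glucose and serum were withdrawn together, so in a comparison with control their effects cannot be told apart. Nothing in the labels says that the 3 libraries of a group came from separate cultures, so p-values measure the spread between these samples. Total counts ran from 21669017 to 22781557 (median 22472430) in control, 16583985 to 18148474 (median 17434604) in hypoxia and 16640239 to 20826701 (median 18772474) in hypoxia + rSRGN.

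Glycolysis splits glucose into pyruvate, and when oxygen is short pyruvate is reduced to lactate, which monocarboxylate transporters carry out of the cell. Glycogen is the stored form of glucose, and phosphorylase releases its glucose units into the same pathway. The neonatal heart draws more on glycolysis than the adult heart, muscle has its own isoforms of several of these enzymes, and transcription of many of the genes is known to respond to hypoxia-inducible factors.

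Levels below are CPM, the counts of a gene scaled to library size with TMM factors. Markers of heart muscle were present in every library and differed between the groups. All 18 cardiomyocyte markers were called lower in hypoxia than in control (median log2 fold change -3.59), where 25.1% of all tested genes were. Their summed level was 55089, 63753 and 67027 CPM in the control libraries, 7222, 6713 and 4616 CPM in hypoxia and 10020.5, 9316 and 9314.5 CPM in hypoxia + rSRGN. The control libraries lay far above the others, and hypoxia replicate 3 was the lowest of all. The most abundant of them was Myh6 (17907, 1344 and 2277 CPM on average in control, hypoxia and hypoxia + rSRGN), and none of the 18 was at 0 in a group.

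In hypoxia against control, 26.4% of all tested genes were called higher and 25.1% lower. Of the 12 fibroblast markers, 9 were called higher in hypoxia, and their summed level was 11559, 13151.5 and 13607 CPM in control, 25285, 22538 and 24023 CPM in hypoxia and 25482, 26505 and 25543.5 CPM in hypoxia + rSRGN, with Col1a1 (3589, 8094 and 8454 CPM on average in control, hypoxia and hypoxia + rSRGN) the most abundant. Of the 11 macrophage markers 10 were called lower in hypoxia, with summed levels of 234, 245 and 251 CPM in control against 25.5, 27.5 and 28.9 CPM in hypoxia. Lyz2 was the most abundant of them (193 CPM on average in control and 15.2 CPM in hypoxia). Of the 10 endothelial markers 7 were called lower, with summed levels of 83.3, 104 and 117 CPM in control and 71.1, 57.8 and 61.5 CPM in hypoxia. Of the 9 smooth muscle and pericyte markers 2 were called higher and 1 lower, not above the shares of all tested genes. The summed levels of these markers were 1897, 2108 and 2228 CPM in control and 2657, 2962 and 2857 CPM in hypoxia. Erythroid and platelet genes were near 0, with 1.62, 1.80 and 1.5 CPM in all in the control libraries and 3.27, 3.12 and 3.18 CPM in hypoxia, and Pf4 alone of the 8 could be tested and was called higher. Hba-a2 was at 0 in each group. In bulk RNA, fewer cells of a type and less RNA per cell cannot be told apart, and the part of these marker differences in the values below was not tested.

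Most of the 34 genes were lower after hypoxia. Calls here required a fold change of 1.5 or more and an adjusted p under 0.05 (edgeR quasi-likelihood and Benjamini-Hochberg). In hypoxia against control 26 of the genes were called lower, where 25.1% of all tested genes were, and 2 were called higher, where 26.4% of all tested genes were. The median log2 fold change over their 35 entries was -1.74, against 0.05 over all tested genes. The genes together took 1.13%, 1.26% and 1.29% of the counts in the control libraries, and 0.622%, 0.608% and 0.608% in hypoxia. The 2 genes called higher were Pfkfb3 and Pfkfb4, and 6 others passed the adjusted p but not the fold limit (Gapdh, Pgam1, Eno1, Pkm, Pdk3 and Ugp2). Of all 16762 tested genes, 6165 were higher and 5711 lower by the adjusted p alone, against 4432 and 4212 with the fold limit.

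**Figure D1:**
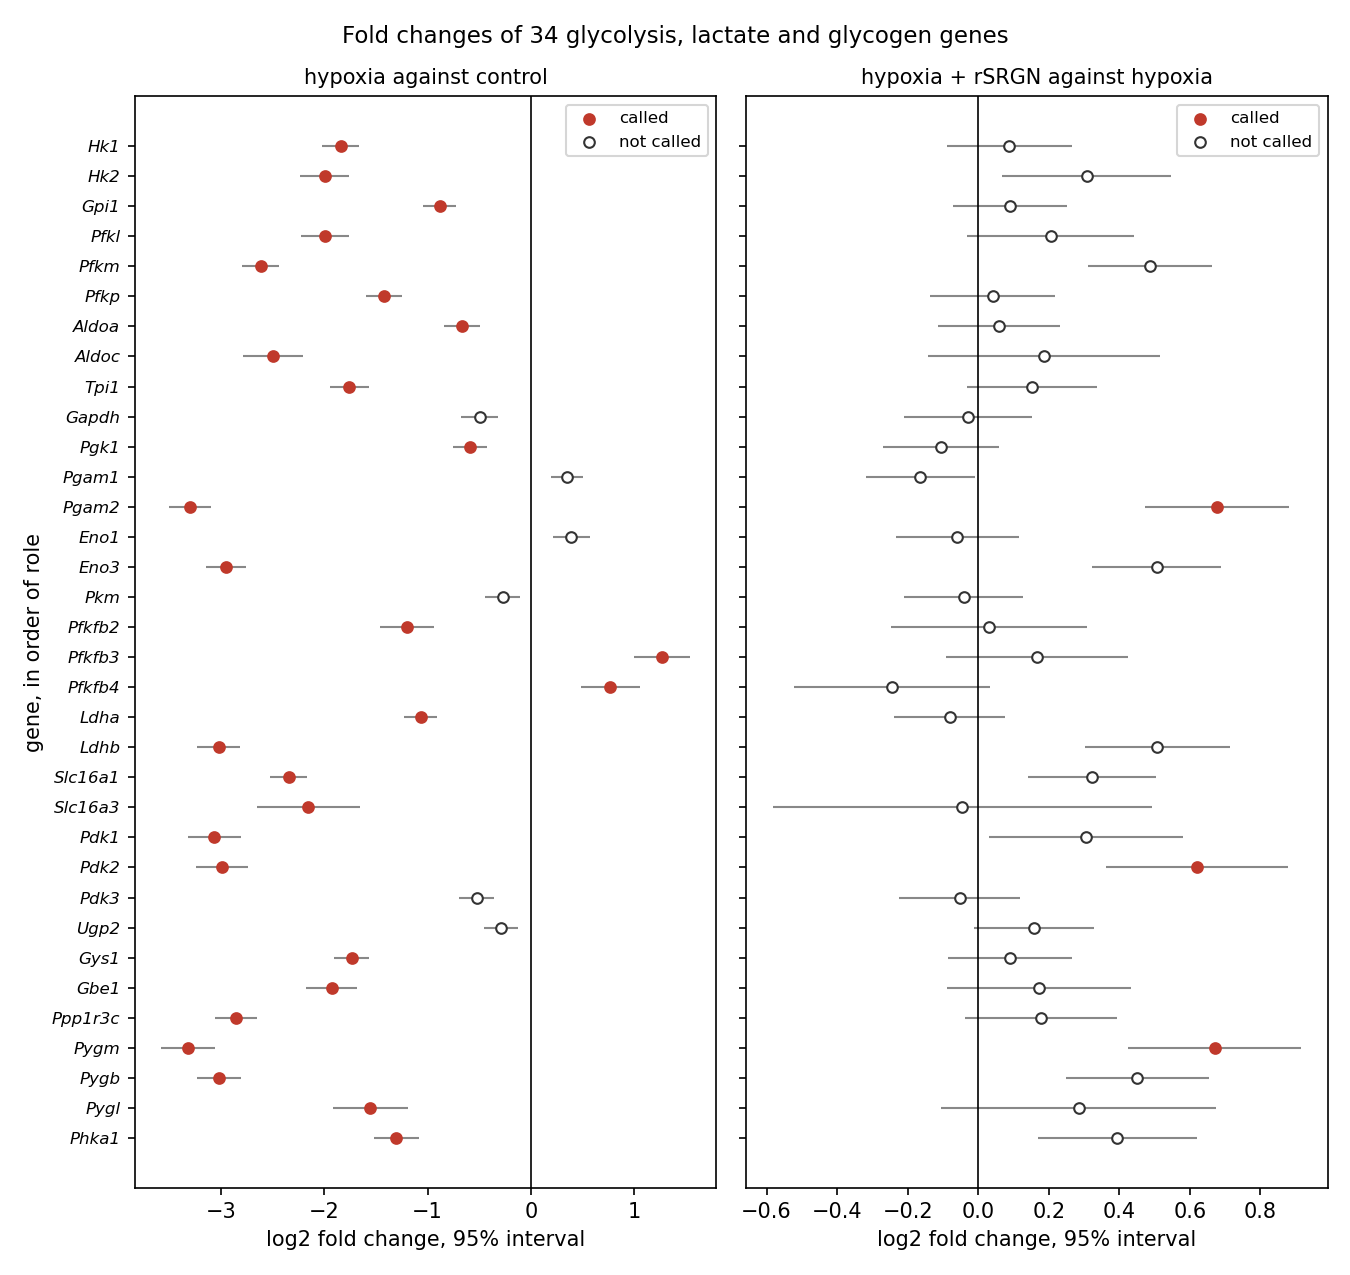
Log2 fold change of each of the 34 genes with its 95% interval (horizontal axis), in hypoxia against control on the left and hypoxia + rSRGN against hypoxia on the right, in order of role (vertical axis). Filled points are called genes. On the left 26 genes are called below 0 and 2 above, and on the right 3 are called above 0, on a narrower axis.

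All 9 genes of upper glycolysis, from the phosphorylation of glucose to triose phosphate, fell in hypoxia. The hexokinases trap glucose in the cell. Hk1 stood at 493, 555 and 495 CPM in the control libraries, 139, 165 and 127 CPM in hypoxia and 152, 148 and 157 CPM in hypoxia + rSRGN. It fell by 1.84 on the log2 scale (SE 0.09, adjusted p = 2.05e-14 by edgeR quasi-likelihood and Benjamini-Hochberg). Hk2, the inducible muscle hexokinase, stood at 177, 208 and 264 CPM in the control libraries, 53.0, 62.3 and 47.3 CPM in hypoxia and 64.7, 71.1 and 65.4 CPM in hypoxia + rSRGN. Its log2 fold change was -2.00 (SE 0.12), and for both genes every hypoxic library lay below every control library.

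Phosphofructokinase commits sugar to glycolysis and has muscle (Pfkm), liver (Pfkl) and platelet (Pfkp) isoforms. Pfkm was measured at 338, 389.8 and 398 CPM in the control libraries, 65.1, 64.6 and 53.9 CPM in hypoxia and 88.2, 83.5 and 85.6 CPM in hypoxia + rSRGN. It was 6.13-fold lower in hypoxia (log2 fold change -2.62, SE 0.09). The 3 groups did not overlap, with hypoxia + rSRGN between the other two. Pfkl had 93.9, 117 and 137 CPM in the control libraries, 30.6, 28.3 and 28.3 CPM in hypoxia and 32.7, 30.5 and 37.3 CPM in hypoxia + rSRGN, a fall of 3.99-fold (log2 fold change -2.00, SE 0.11). Pfkp had 250.5, 293 and 320.0 CPM in the control libraries, 109, 115 and 98.2 CPM in hypoxia and 107, 112 and 113 CPM in hypoxia + rSRGN, and was 2.68-fold lower (log2 fold change -1.42, SE 0.09). Both hypoxic groups lay below control for Pfkl and Pfkp and overlapped each other.

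Aldolase A had the highest level per length of the upper pathway, 278 CPM per kb on average over the 9 libraries. Aldoa counted 917, 1106 and 1160.3 CPM in the control libraries, 687, 626 and 695 CPM in hypoxia and 688, 675 and 729 CPM in hypoxia + rSRGN. It was 1.59-fold lower in hypoxia (log2 fold change -0.66, SE 0.08), with no overlap between control and hypoxia. The second Aldoa entry held under 1 CPM in each library and was not called. Aldoc, the brain aldolase, counted 27.4, 32.8 and 32.4 CPM in the control libraries, 5.42, 6.64 and 4.34 CPM in hypoxia and 5.47, 6.74 and 6.38 CPM in hypoxia + rSRGN, 5.64-fold lower in hypoxia (log2 fold change -2.50, SE 0.14). Tpi1, which interconverts the triose phosphates, counted 415, 486 and 559 CPM in the control libraries, 149, 145 and 137 CPM in hypoxia and 150.2, 161 and 168 CPM in hypoxia + rSRGN, and was 3.38-fold lower (log2 fold change -1.76, SE 0.09). The aldolase C and triose phosphate isomerase levels of control lay above all 6 hypoxic libraries. Gpi1, the isomerase of glucose 6-phosphate, fell by 0.88 on the log2 scale.

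Lower glycolysis, from triose phosphate to pyruvate, was divided. Of its 7 genes, 3 were called lower (Pgk1, Pgam2 and Eno3) and the other 4 were not called. Pgam2 (ENSMUSG00000020475.3, chr11:5801640-5803733, minus strand), the muscle phosphoglycerate mutase, stood at 246, 259 and 258 CPM in the control libraries, 29.2, 27.3 and 20.5 CPM in hypoxia and 39.6, 41.7 and 41.9 CPM in hypoxia + rSRGN. It fell 9.88-fold (log2 fold change -3.30, SE 0.10, adjusted p = 1.4e-17 by edgeR quasi-likelihood and Benjamini-Hochberg), and the groups did not overlap. The broadly expressed Pgam1 had a log2 fold change of 0.35 (SE 0.07), below the fold limit, with each hypoxia library above each control library.

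Enolase gave a similar pair of values. Eno3, the muscle enolase, stood at 650.5, 701 and 708 CPM in the control libraries, 98.9, 92.5 and 74.3 CPM in hypoxia and 127, 119 and 131 CPM in hypoxia + rSRGN. It was 7.75-fold lower in hypoxia (log2 fold change -2.95, SE 0.09), with no overlap. Eno1 had a log2 fold change of 0.39 (SE 0.08), under the fold limit. Eno1 has a near-identical gene, Eno1b (18.3 ± 1.02 CPM in control and 22.1 ± 2.71 CPM in hypoxia, SD, n = 3), and Gapdh, Pgam1, Pgk1 and Ldha have processed copies. Adding the counts of such named copies to their gene altered no call among the 34 genes.

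Pyruvate kinase (Pkm), the last step, had the highest level per length of the 34 genes, 341 CPM per kb on average over the 9 libraries. In control alone Eno3 was at 395 ± 18.1 and Pkm at 388 ± 42.7 CPM per kb (SD, n = 3), within the spread of the libraries. Pkm was measured at 1696, 2061 and 2071 CPM in the control libraries, 1551, 1719.7 and 1557 CPM in hypoxia and 1550.3, 1560.4 and 1580.2 CPM in hypoxia + rSRGN. Control and hypoxia overlapped, and Pkm was not called (log2 fold change -0.27, SE 0.08). Gapdh was not called either (log2 fold change -0.49, SE 0.09). Pgk1, which makes ATP from bisphosphoglycerate, lay close to the fold limit (log2 fold change -0.59, SE 0.08), and its call was lost with library size alone as the scaling (-0.52), without control replicate 3 (-0.51) and without hypoxia replicate 3 (-0.55).

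**Figure D2:**
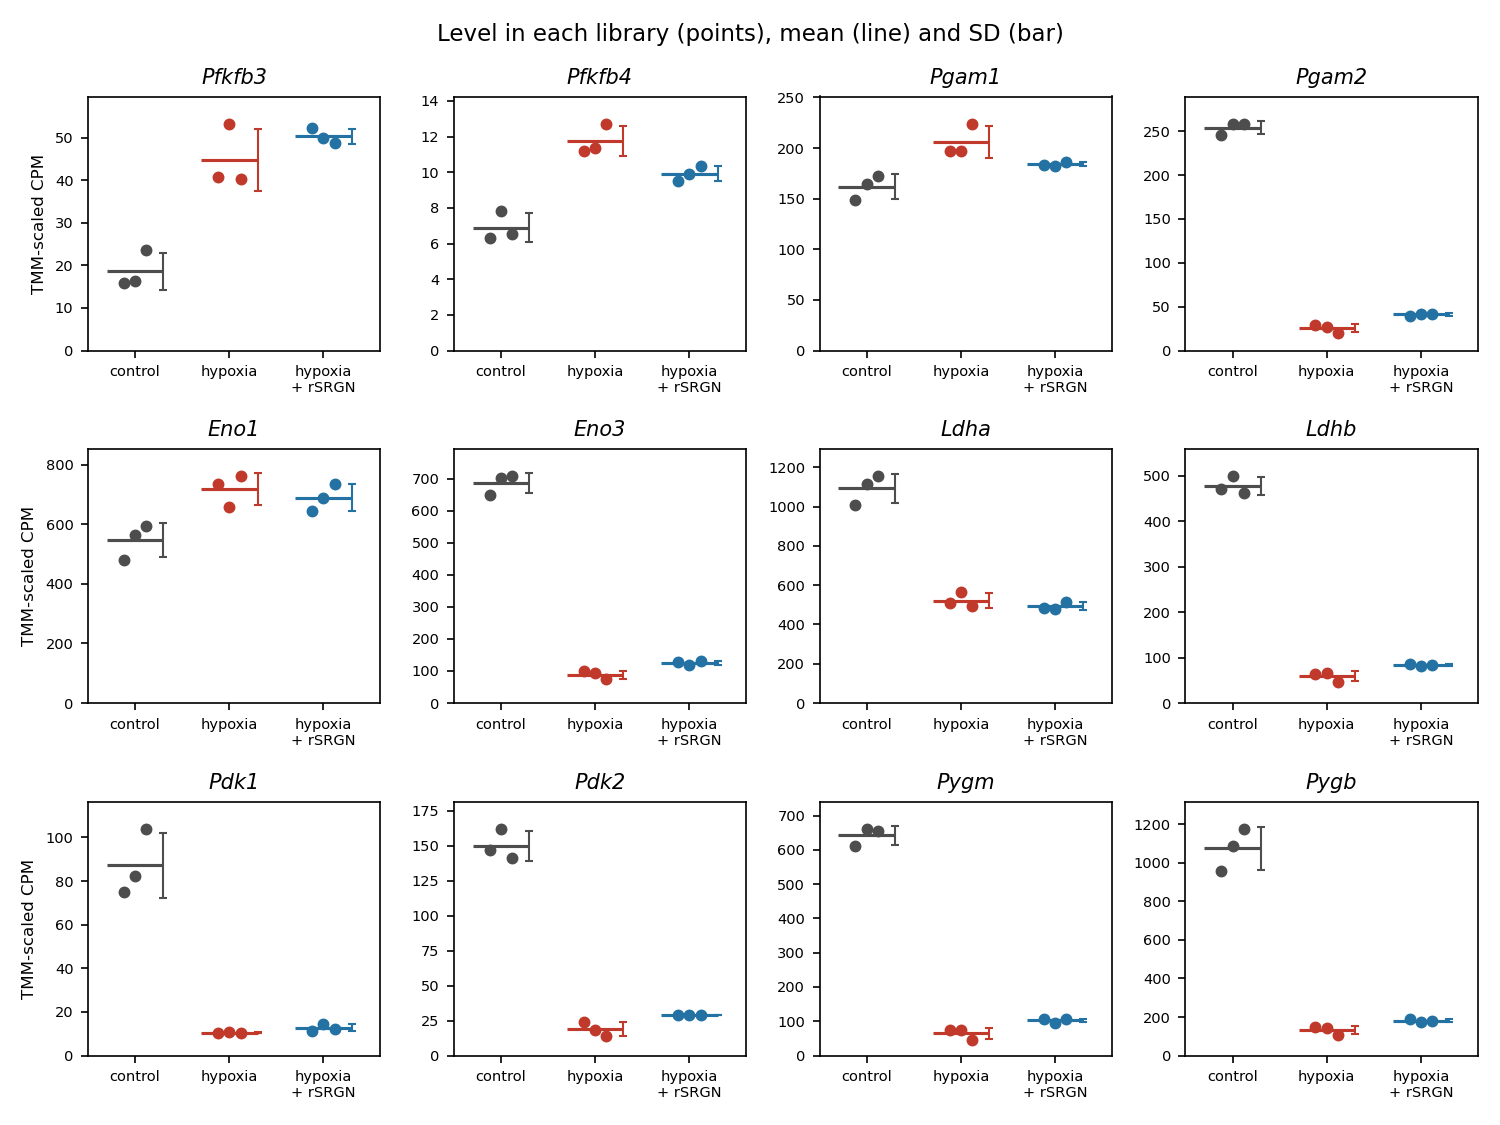
TMM-scaled CPM (vertical axes, each from 0) of 12 genes in the 3 libraries of each group (points), with the mean (line) and SD (bar). Pgam2, Eno3, Ldhb, Pdk1, Pdk2, Pygm and Pygb are lower in both hypoxic groups than in control, while Pfkfb3 and Pfkfb4 are higher.

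The bifunctional enzymes that set the level of fructose 2,6-bisphosphate, the activator of phosphofructokinase, contained the 2 genes that rose. Pfkfb3 (ENSMUSG00000026773.19, chr2:11471433-11554077, minus strand), whose product favours synthesis of the activator, stood at 15.8, 16.5 and 23.6 CPM in the control libraries, 40.8, 53.3 and 40.4 CPM in hypoxia and 52.2, 49.9 and 48.8 CPM in hypoxia + rSRGN. It rose 2.41-fold (log2 fold change 1.27, SE 0.13, adjusted p = 1.33e-08 by edgeR quasi-likelihood and Benjamini-Hochberg), with all 6 hypoxic libraries above the control libraries. Pfkfb4 (ENSMUSG00000025648.18, chr9:108991778-109032228, plus strand) rose 1.70-fold (log2 fold change 0.77, SE 0.14), from 6.90 ± 0.829 to 11.8 ± 0.832 CPM (SD, n = 3). Pfkfb2, the heart isoform, went the other way, at 21.6, 19.4 and 21.9 CPM in the control libraries, 10.7, 7.96 and 8.68 CPM in hypoxia and 8.57, 9.48 and 9.86 CPM in hypoxia + rSRGN. It fell 2.30-fold (log2 fold change -1.20, SE 0.13), with no overlap between control and hypoxia.

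All 4 genes of lactate dehydrogenase and lactate transport fell. Ldha, the form that favours lactate production, had the highest level per length of this group at 212 CPM per kb on average over the 9 libraries. It counted 1010.5, 1115 and 1155 CPM in the control libraries, 508, 565 and 493 CPM in hypoxia and 482, 481 and 517 CPM in hypoxia + rSRGN, a fall of 2.10-fold (log2 fold change -1.07, SE 0.08). Ldhb, the main form of heart muscle, counted 469.9, 499 and 462 CPM in the control libraries, 64.5, 65.3 and 45.9 CPM in hypoxia and 85.2, 80.6 and 84.1 CPM in hypoxia + rSRGN, and fell 8.14-fold (log2 fold change -3.03, SE 0.10). Neither gene overlapped between control and hypoxia.

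Slc16a1 (MCT1) and Slc16a3 (MCT4) move lactate across the membrane. Slc16a1 had 176, 172 and 193 CPM in the control libraries, 39.2, 35.9 and 31.4 CPM in hypoxia and 43.6, 47.1 and 42.4 CPM in hypoxia + rSRGN, 5.08-fold lower in hypoxia (log2 fold change -2.34, SE 0.09). For Slc16a3 the libraries gave 26.9, 55.0 and 77.6 CPM in the control libraries, 11.5, 13.7 and 10.6 CPM in hypoxia and 9.40, 11.3 and 13.9 CPM in hypoxia + rSRGN, 4.45-fold lower (log2 fold change -2.15, SE 0.24). Slc16a3 had the largest SE of the called genes among the 34, with control replicate 1 well under the other control libraries but above all hypoxic ones.

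The pyruvate dehydrogenase kinases inhibit pyruvate dehydrogenase and so hold pyruvate back from oxidation in the mitochondria. Pdk1, a well-known target of hypoxia-inducible factor, stood at 74.9, 82.5 and 104 CPM in the control libraries, 10.2, 10.6 and 10.5 CPM in hypoxia and 11.4, 14.7 and 12.3 CPM in hypoxia + rSRGN, and was 8.37-fold lower in hypoxia (log2 fold change -3.06, SE 0.12, adjusted p = 1.55e-15 by edgeR quasi-likelihood and Benjamini-Hochberg). Pdk2 (ENSMUSG00000038967.13, chr11:95026258-95041354, minus strand) stood at 147, 162 and 142 CPM in the control libraries, 24.1, 18.4 and 14.1 CPM in hypoxia and 29.2, 29.2 and 28.9 CPM in hypoxia + rSRGN, 7.94-fold lower (log2 fold change -2.99, SE 0.12). For both kinases the hypoxic libraries lay below every control library. Pdk3 had a smaller difference that was not called (log2 fold change -0.52, SE 0.08). Per length, Pdk2 was at 47.5 ± 3.40 and Pdk3 at 22.7 ± 0.926 CPM per kb in control (SD, n = 3). In hypoxia Pdk3 had the higher level of the pair, 15.8 ± 0.866 against 5.97 ± 1.59 CPM per kb, and with rSRGN 15.2 ± 0.52 against 9.19 ± 0.0454 CPM per kb.

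In glycogen synthesis 3 of 4 genes fell. Gys1, muscle glycogen synthase, was measured at 105, 119 and 120.3 CPM in the control libraries, 33.9, 33.0 and 36.5 CPM in hypoxia and 38.0, 34.1 and 38.0 CPM in hypoxia + rSRGN, and fell 3.33-fold (log2 fold change -1.74, SE 0.08). Gbe1, the branching enzyme, was measured at 54.2, 52.9 and 53.5 CPM in the control libraries, 14.4, 16.9 and 11 CPM in hypoxia and 14.6, 17.1 and 15.8 CPM in hypoxia + rSRGN, and fell 3.80-fold (log2 fold change -1.93, SE 0.12). Ppp1r3c, a subunit that brings protein phosphatase to glycogen, was measured at 102, 93.5 and 109.9 CPM in the control libraries, 14.8, 14 and 13.5 CPM in hypoxia and 14.3, 16.5 and 17 CPM in hypoxia + rSRGN, and fell 7.22-fold (log2 fold change -2.85, SE 0.10). None of the 3 overlapped between control and hypoxia. Ugp2, which makes UDP-glucose and had the highest level per length of this group (43.7 CPM per kb on average over the 9 libraries), was measured at 156, 134 and 152 CPM in the control libraries, 124, 108 and 129.8 CPM in hypoxia and 141, 136 and 127 CPM in hypoxia + rSRGN and was not called (log2 fold change -0.29, SE 0.08).

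All 4 genes of glycogen breakdown fell. Pygm (ENSMUSG00000032648.14, chr19:6384399-6398459, plus strand), muscle phosphorylase, was at 611, 662 and 655 CPM in the control libraries, 73.4, 73.8 and 45.8 CPM in hypoxia and 106, 96.3 and 105 CPM in hypoxia + rSRGN. This was the largest fall of the 34 genes, 9.99-fold (log2 fold change -3.32, SE 0.12), while without hypoxia replicate 3 Pgam2 came first (-3.17 against -3.13 for Pygm). Pygb, brain phosphorylase, had the highest level per length of this group (96.3 CPM per kb on average over the 9 libraries). It was at 959, 1088 and 1178 CPM in the control libraries, 146, 144 and 108 CPM in hypoxia and 189.8, 175 and 179.8 CPM in hypoxia + rSRGN, 8.10-fold lower (log2 fold change -3.02, SE 0.10). In both, hypoxia replicate 3 was the lowest library, as it was for the cardiomyocyte markers.

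Pygl, liver phosphorylase, was at 12.3, 13.6 and 12.9 CPM in the control libraries, 4.56, 3.92 and 4.69 CPM in hypoxia and 6.13, 3.80 and 6.22 CPM in hypoxia + rSRGN, 2.94-fold lower (log2 fold change -1.55, SE 0.17). Phka1, the muscle regulatory subunit of phosphorylase kinase, was at 48.0, 50.3 and 51.4 CPM in the control libraries, 22, 18.4 and 20.3 CPM in hypoxia and 27.8, 29.4 and 22.5 CPM in hypoxia + rSRGN, 2.47-fold lower (log2 fold change -1.30, SE 0.11). Control lay above hypoxia for both.

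Because isoforms of one enzyme moved by unequal amounts, their shares were computed from CPM per kb in each library. Pgam2 made up 79.6%, 78.8% and 77.9% of Pgam1 and Pgam2 together in control, 25.9%, 24.7% and 17.8% in hypoxia and 33.7%, 35.1% and 34.7% in hypoxia + rSRGN. Eno3 made up 80.7%, 79.3% and 78.7% of Eno1 and Eno3 in control, 29.4%, 30.3% and 23.2% in hypoxia and 37.9%, 34.9% and 35.5% in hypoxia + rSRGN. Ldhb took 49.5%, 48.5% and 45.7% of Ldha and Ldhb together in control, 21.1%, 19.6% and 16.4% in hypoxia and 27.1%, 26.1% and 25.6% in hypoxia + rSRGN. For these isoforms no library of one group overlapped another group, and hypoxia + rSRGN lay between hypoxia and control.

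The share of Pfkm in the sum of Pfkl, Pfkm and Pfkp went from 74.4% ± 1.38 (SD, n = 3) in control to 59.6% ± 1.24 in hypoxia and 65.9% ± 1.27 in hypoxia + rSRGN. Pdk3 made up 27.9% ± 1.55 of Pdk1, Pdk2 and Pdk3 together in control, 68.5% ± 5.81 in hypoxia and 58.3% ± 0.617 in hypoxia + rSRGN. Pfkfb3 made up 36.1% ± 4.94 of Pfkfb2, Pfkfb3 and Pfkfb4 together in control, 61.5% ± 4.99 in hypoxia and 66.7% ± 1.92 in hypoxia + rSRGN. These sums hold only isoforms among the 34 genes. Among the genes left out are Pdk4, at 13.1 ± 0.46 CPM per kb in control and 3.21 ± 0.561 CPM per kb in hypoxia (SD, n = 3), and Pfkfb1, at 0.508 ± 0.00745 and 0.46 ± 0.0802 CPM per kb. The enolase sum leaves out Eno2, called higher in hypoxia, at 2.03 ± 0.331 and 5.38 ± 0.445 CPM per kb. The transporter sum leaves out Slc16a7, at 1.70 ± 0.201 and 0.333 ± 0.0706 CPM per kb. Hk3, at 1.28 ± 0.0445 and 0.201 ± 0.129 CPM per kb, is outside the hexokinase sum. The shares of Hk1, Hk2, Pfkfb4, Slc16a1 and Slc16a3 overlapped between control and hypoxia. Pygm made up 47.1% ± 1.69 (SD, n = 3) of Pygm, Pygb and Pygl together in control and 41.1% ± 2.67 in hypoxia. In hypoxia + rSRGN the Pygm share was 45.2% ± 0.733 and overlapped control. The shares are a description and were not tested.

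**Figure D3:**
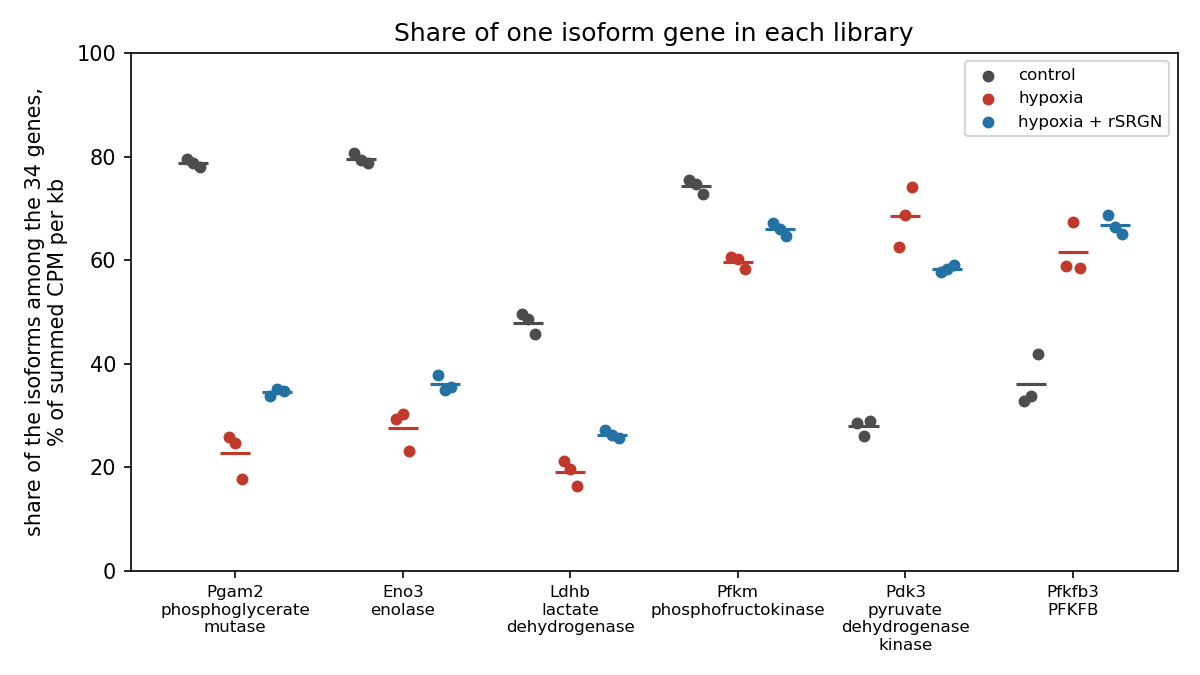
Share of one isoform gene in the summed CPM per kb of the isoforms of its enzyme among the 34 genes (vertical axis, percent) in each library (points) with the group mean (line), for 6 genes (horizontal axis). The shares of Pgam2, Eno3, Ldhb and Pfkm are lowest in hypoxia, and those of Pdk3 and Pfkfb3 are lowest in control.

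Adding rSRGN in hypoxia was accompanied by higher levels of a few of these genes. In hypoxia + rSRGN against hypoxia 3 of the 34 genes were called higher (Pgam2, Pdk2 and Pygm), where 2.27% of all tested genes were. By the same edgeR test 0 were called lower, where 0.859% of all tested genes were. The count was also 0 with DESeq2, and at an unadjusted p under 0.05 with the fold limit kept. Pgam1 was lower by less than that limit (log2 fold change -0.16, 95% interval -0.32 to -0.0089). Of the 35 entries, 26 had a log2 fold change above 0 and 9 below. The median log2 fold change was 0.17, against -0.03 over all tested genes. The comparison shares its hypoxia libraries with the one against control.

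Pgam2 was 1.60-fold higher with rSRGN (log2 fold change 0.68, SE 0.10, adjusted p = 0.00015 by edgeR quasi-likelihood and Benjamini-Hochberg), Pygm 1.59-fold (log2 fold change 0.67, SE 0.12, adjusted p = 0.00066) and Pdk2 1.54-fold (log2 fold change 0.62, SE 0.12, adjusted p = 0.00185). In each of the 3 genes every rSRGN library lay above every hypoxia library. All 3 calls were lost without hypoxia replicate 3, where the log2 fold changes were 0.54 for Pgam2, 0.48 for Pygm and 0.45 for Pdk2. That library was the lowest of its group for each of the 3 genes and for the cardiomyocyte markers. Without it, 201 of 17445 tested genes were called higher, where 381 of 16762 were with all libraries.

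Another 6 genes passed the adjusted p but not the fold limit, all with higher values in hypoxia + rSRGN: Ldhb (0.51), Eno3 (0.51), Pfkm (0.49), Pygb (0.45), Phka1 (0.39) and Slc16a1 (0.32 on the log2 scale). Of all 16762 tested genes, 1766 were higher and 1024 lower by the adjusted p alone, against 381 and 144 with the fold limit. Eno3 was called without hypoxia replicate 1 (0.59) and Ldhb without hypoxia replicate 2 (0.59). Pfkfb3 and Pfkfb4 were not called (log2 fold changes 0.17, SE 0.12, and -0.24, SE 0.13). Beside these values, 15 of the 18 cardiomyocyte markers were called higher with rSRGN (median log2 fold change 0.77), where 2.27% of all tested genes were. Without hypoxia replicate 3 it was 9 of them (median 0.60). Of the 12 fibroblast markers 1 was called lower (Tcf21, list median 0.05). Called higher were 1 of 10 endothelial markers (Kdr, list median 0.08) and 1 of 9 smooth muscle and pericyte markers (Rgs5, list median 0.23). Of the 11 macrophage markers 0 were called (median 0.35). The part of the marker differences in the values of Pgam2, Pygm and Pdk2 was not tested.

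Against control, hypoxia + rSRGN left 26 of the genes called lower, where 24.7% of all tested genes were, and 1 called higher (Pfkfb3, 1.44 on the log2 scale), where 24.1% of all tested genes were. The median log2 fold change was -1.60, against 0.01 over all tested genes. Pgam2 was at -2.63, Pygm at -2.65 and Pdk2 at -2.37 in this comparison. Pfkfb4 was under the fold limit (0.52) and was called without control replicate 2 (0.62). The call of Aldoa (-0.61) was lost with library size alone as the scaling (-0.56) and without control replicate 2 (-0.58), control replicate 3 (-0.54) or hypoxia + rSRGN replicate 2 (-0.58). Pdk3 (-0.58) was called lower without control replicate 1 (-0.59), control replicate 2 (-0.61), hypoxia + rSRGN replicate 2 (-0.60) or hypoxia + rSRGN replicate 3 (-0.59), and when every gene with a count in any library was kept (-0.62). Gapdh (-0.52) was called lower without control replicate 1 (-0.60). The comparison shares its libraries with both of the others.

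Of 45 other genes of the pathway, 36 could be tested, and in hypoxia against control 20 were called lower and 6 higher, where 25.1% and 26.4% of all tested genes were. The genes named next were among those with the largest changes at a mean of at least 1 CPM. Ppp1r3a, the muscle glycogen-targeting subunit of protein phosphatase, had 85.9, 63.4 and 78.7 CPM in the control libraries, 4.88, 5.37 and 3.88 CPM in hypoxia and 11.7, 11.2 and 8.33 CPM in hypoxia + rSRGN, 16.1-fold lower (log2 fold change -4.01, SE 0.15). Ppp1r3d, a related subunit, had a log2 fold change of -3.43 (SE 0.15), Slc16a7, the transporter MCT2, -2.34 (SE 0.18), and Hk3 -2.65 (SE 0.38).

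With rSRGN, 2 of these 36 genes were called higher and 1 lower, where 2.27% and 0.859% of all tested genes were. Ppp1r3a was 2.20-fold higher than in hypoxia alone (log2 fold change 1.14, SE 0.16). Pdk4, another pyruvate dehydrogenase kinase, was 1.61-fold higher (log2 fold change 0.69, SE 0.14), a call lost without hypoxia replicate 3 (0.57) and without hypoxia + rSRGN replicate 2 (0.55). Bpgm, which makes 2,3-bisphosphoglycerate, was 1.53-fold lower (log2 fold change -0.61, SE 0.12), and its call was lost with RLE scaling (-0.58), without hypoxia replicate 3 (-0.56) and without hypoxia + rSRGN replicate 2 (-0.57). The call of Ppp1r3a held in every setting run. Hk3 was not called (-1.37, SE 0.54), but was called lower with DESeq2 (-1.36) and without hypoxia replicate 2 (-1.75).

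The genes were also compared by promoter sequence, which was not itself used to choose them. Many of the genes are known to respond to hypoxia-inducible factors, so the shares below are not independent of the choice. RefSeq promoters (GRCm38.p6, from 250 bases before to 50 bases after a start) matched all 34 genes, with 51 starts. They were searched on both strands for ACGTG and GCGTG, the core letters of hypoxia response elements; the palindrome CACGTG holds ACGTG on both strands. ACGTG was in 49.0% of the 51 promoters and in 19.6% of all 32851, and GCGTG in 56.9% and 32.4%. Among 14933 promoters matched by symbol to tested genes the shares were 24.5% and 48.1%. The median GC content was 61.0% in the 51, 60.3% for tested genes and 52.7% in all. By gene, 85.3% of the 34, 65.5% of the matched tested genes and 46.7% of all genes with a promoter held a match of either motif. By promoter, either motif was in 76.5% of the 51, 59.5% of those matched to tested genes and 43.8% of all. Either motif was in 3 of 3 promoters of the genes called higher in hypoxia against control, 28 of 38 of those called lower and 8 of 10 of those not called. Some of the 51 windows overlap each other, in Aldoa, Eno1, Pfkm and Pfkfb2. A match is a description of letters, not a site.

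The promoters of the 2 genes that rose are shown with those of Ldha, which held the most matches of the 51, and Pgam2, which held none and fell most among the glycolytic enzymes; the choice was made after the values were seen. Capitals mark the letters of either motif on either strand. Pfkfb3 has a start at chr2:11553880-11554179, minus strand, with 1 match, and another at chr2:11502041-11502340, minus strand, with 4 matches. The Pfkfb4 promoter lies at chr9:108991652-108991951, plus strand, with 1 match. The first of the Ldha starts is at chr7:46845554-46845853, plus strand, with 7 matches, and the Pgam2 promoter is at chr11:5803747-5804046, minus strand, with 0.
Pfkfb3 start 1: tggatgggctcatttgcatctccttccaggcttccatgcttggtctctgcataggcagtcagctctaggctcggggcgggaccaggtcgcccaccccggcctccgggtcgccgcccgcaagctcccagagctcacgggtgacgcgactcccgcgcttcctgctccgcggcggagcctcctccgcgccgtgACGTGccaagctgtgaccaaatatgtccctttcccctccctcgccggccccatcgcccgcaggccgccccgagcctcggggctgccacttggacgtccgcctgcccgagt
Pfkfb3 start 2: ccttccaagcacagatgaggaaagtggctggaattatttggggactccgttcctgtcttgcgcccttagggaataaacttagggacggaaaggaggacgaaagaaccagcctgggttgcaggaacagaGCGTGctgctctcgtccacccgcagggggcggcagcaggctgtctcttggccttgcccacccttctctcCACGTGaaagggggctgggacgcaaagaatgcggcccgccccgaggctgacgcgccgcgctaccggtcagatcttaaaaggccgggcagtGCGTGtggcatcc
Pfkfb4 start 1: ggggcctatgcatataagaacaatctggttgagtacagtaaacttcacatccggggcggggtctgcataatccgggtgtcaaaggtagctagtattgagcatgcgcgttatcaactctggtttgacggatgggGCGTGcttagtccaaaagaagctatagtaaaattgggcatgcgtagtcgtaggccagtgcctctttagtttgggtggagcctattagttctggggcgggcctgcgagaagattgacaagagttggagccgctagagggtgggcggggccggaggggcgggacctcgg
Ldha start 1: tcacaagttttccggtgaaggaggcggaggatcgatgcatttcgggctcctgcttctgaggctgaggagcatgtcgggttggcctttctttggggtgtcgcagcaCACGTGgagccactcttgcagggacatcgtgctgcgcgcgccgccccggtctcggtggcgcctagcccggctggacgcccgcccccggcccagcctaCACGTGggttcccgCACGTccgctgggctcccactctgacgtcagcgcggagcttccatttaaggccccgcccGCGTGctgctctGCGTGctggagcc
Pgam2 start 1: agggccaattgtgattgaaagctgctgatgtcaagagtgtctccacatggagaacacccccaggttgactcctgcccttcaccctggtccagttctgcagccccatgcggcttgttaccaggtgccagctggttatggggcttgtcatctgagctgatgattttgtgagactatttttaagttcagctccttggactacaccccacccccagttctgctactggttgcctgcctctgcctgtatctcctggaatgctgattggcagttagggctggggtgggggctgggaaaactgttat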

How the data were processed

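The deposited values are raw counts of fragments per gene, in whole numbers, for 9 libraries of poly(A)-enriched RNA. Per the file headers, featureCounts 2.0.1 counted paired fragments on exons of GENCODE mouse release M25 without a strand option, and the deposited other column used is gene length in bases. The submitters' notes name HISAT2 and mm10. With no strand, overlapping genes on opposite strands cannot be separated. All 9 count columns were used and 0 were left out.

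In R 4.3.3, edgeR 4.0.16 was run with filterByExpr, TMM scaling and its quasi-likelihood test, on group means in one fit of 9 libraries. Standard errors were derived from the F statistic. Libraries of a group differed by a chi-square of 3.70 to 13.9 per degree of freedom, where counting error alone gives about 1, and each was kept as a replicate.

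The genes and lists were chosen with earlier results of these data known. Values in all libraries are given for genes called in hypoxia against control at an absolute log2 fold change of at least 1, genes called with rSRGN, and the gene with the highest level per length in each role. Among other pathway genes, those called with rSRGN and the 5 largest changes with a mean of at least 1 CPM were to be named; a result that this rule covers is not reported here.

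Alternatives were DESeq2 1.42.0, RLE scaling, library size alone, filters of at least 1 count in all or 10 counts in every library, no fold limit, an unadjusted p, a fit of the compared groups alone, replicate number added as a block, named gene copies added to their gene, and each of 9 libraries left out. Leaving out the second Aldoa entry, and the settings for the other pathway genes, for the marker lists and for single genes in hypoxia + rSRGN against control, were chosen after seeing the data. Figures were drawn with matplotlib 3.10.9.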

Additional observations from a re-analysis of the deposited data

How the results depend on the processing

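The median log2 fold change of the genes kept its sign in every setting run, in each comparison. With no fold limit, the genes called higher were 4 in hypoxia against control, 9 in hypoxia + rSRGN against hypoxia and 4 in hypoxia + rSRGN against control. Over all 16762 tested genes, 6165, 1766 and 5758 were called higher and 5711, 1024 and 5745 lower with no fold limit. In any setting run, at most 30, 0 and 29 of the 34 genes were called lower. Leaving out 1 library in turn gave 2 to 2, 0 to 4 and 1 to 2 genes called higher in these comparisons, the 0 without hypoxia replicate 3 and the 2 of the last without control replicate 2. In these fits the genes called lower were 25 to 26, 0 to 0 and 25 to 28. Without hypoxia replicate 3, 201 of 17445 tested genes were called higher in hypoxia + rSRGN against hypoxia, where 381 of 16762 were with all libraries. Without control replicate 2, 3940 of 17259 were called higher in hypoxia + rSRGN against control, where 4036 of 16762 were with all libraries. The fit with the replicate block gave 2, 3 and 1 genes called higher and 26, 0 and 26 called lower, the same counts of the 34 genes as without it. With the block, 21 other pathway genes were called lower in hypoxia against control, where 20 were without it. Of the cardiomyocyte markers 16 were called higher in hypoxia + rSRGN against hypoxia with the block, where 15 were without it. Libraries with the same number did not visibly deviate together (r -0.0547 to 0.0519 across genes). Libraries with different numbers gave r from -0.0826 to 0.0667, so this check cannot tell whether the numbers pair libraries. Without the second Aldoa entry, added after seeing the data, the medians were -1.75, 0.16 and -1.63. In hypoxia + rSRGN against control the call of Aldoa (-0.61) was lost with library size alone (-0.56) and without control replicate 2 (-0.58), control replicate 3 (-0.54) or hypoxia + rSRGN replicate 2 (-0.58). The causes were not tested. The second Aldoa entry had 2 to 16 counts in a library, and no difference in it was detectable at this depth.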
